A study of Mus musculus with 10 samples.

Results

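The variable (V) segments of the T cell receptor were followed across the spleens of 5 BXD2 mice through the 163 gene rows whose symbol starts with Trav or Trbv, out of 31053 rows measured. Of these, 128 were alpha-chain (Trav) rows on chromosome 14 and 35 were beta-chain (Trbv) rows on chromosome 6 of mm10. They were read in 3737 T cells, defined by at least 1 unique molecular identifier (UMI, a tag that counts each captured molecule once) of Cd3e, Cd3d or Cd3g and none of the B cell gene Cd79a, out of 9200 cells kept. BXD2 is a recombinant inbred mouse strain that develops spontaneous autoimmune disease. The p19-/- group was 3 BXD2 mice that lack p19, the IL-23 subunit encoded by Il23a, of which mice 1 and 2 were female and mouse 3 was male. The WT group was 2 female BXD2 mice with intact p19. The labels give neither age nor any treatment, and each mouse gave 1 droplet library made with a 5' kit. Il23a had 0 UMIs in the kept cells of all 5 libraries, so its level could not check the genotype labels.

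Each maturing T cell joins 1 V segment to a joining segment at the alpha locus, and V, diversity and joining segments at the beta locus, and the daughter cells of a clone keep that choice. A cell can carry rearrangements on both copies of a locus. CD4 and CD8 T cells recognise peptides on different classes of MHC molecule and are known to differ in V usage. Some Trbv segments are known for the deletion of the cells that carry them by superantigens of endogenous mouse mammary tumour viruses. Follicular helper (Tfh) cells help B cells in germinal centres, and Foxp3 is the lineage factor of regulatory T cells.

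T cells were split by UMIs of marker genes. The Tfh gate (2 or more of Cxcr5, Pdcd1, Bcl6, Il21, Sostdc1, Ascl2 and Tox2) held 2351 cells, with 419, 269 and 554 in p19-/- mice 1 to 3 and 576 and 533 in WT mice 1 and 2. The Foxp3-positive gate held 576 cells (59, 63 and 156, then 158 and 140), the effector CD4 gate 215 (36, 28 and 42, then 57 and 52) and the CD8 gate 149 (33, 30 and 24, then 37 and 25). A further 446 T cells fell in no gate. At least 1 of the 3 Cd3 genes defined the cells, and Cd3e was found in 96.0 to 99.3% of them per mouse. Pdcd1 was found in 93.1 to 96.3% of Tfh cells and Cd8b1 in 90.9 to 100% of CD8 cells. Both helped to define these gates, so their shares do not check them. Of the other genes of the Tfh gate, Sostdc1 was found in 66.8 to 72.8%, Tox2 in 48.4 to 65.7% and Ascl2 in 45.3 to 54.7% of Tfh cells. Cxcr5 was found in 36.8 to 47.2%, Il21 in 23.4 to 37.9% and Bcl6 in 21.0 to 28.0%. In the Foxp3-positive gate, Ikzf2 was found in 78.0 to 95% and Ctla4 in 65.2 to 82.5%, while Pdcd1 was found in 67.1 to 88.9%. Ikzf2 was also found in 53.8 to 68.0% of Tfh cells, so the markers of these gates overlap.

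Median depth per T cell lay between 2830.5 UMIs (WT 1) and 4564 UMIs (p19-/- 2). Between 7.17% (WT 2) and 35.7% (p19-/- 1) of T cells shared their barcode with an immunoglobulin contig of the same mouse, with higher shares in all 3 p19-/- mice than in either WT mouse. The summed level of 3 myeloid genes (Lyz2, C1qb and Cd68) in T cells was 597, 521 and 159 CPM (UMIs scaled to the total of the cells summed) in p19-/- mice 1 to 3 and 134 and 27.7 in WT mice 1 and 2, and its part in the results was not tested. Natural killer and gamma delta T cell genes were found in at most 1.32% and 1.14% of T cells. Of 11287 distinct barcodes, 68 occurred in more than 1 library, 10 of them among T cells.

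Most T cells could be assigned a segment. A Trav UMI was found in 84.8%, 90.4% and 84.7% of T cells of p19-/- mice 1 to 3, and in 79.4% and 85.5% of those of WT mice 1 and 2. For Trbv the shares were 91.0%, 94.3% and 90%, against 89.5% and 94.8%. In B cells, which do not use these segments, the shares were 0 to 1.67% for Trav and 0.573 to 2.14% for Trbv, although B cells were deeper (median 5510.5 to 12529 UMIs). A cell was assigned the Trbv segment, and the Trav subgroup, with its most UMIs, and tied cells were left unassigned. T cells with a UMI of either locus made up 95.8% ± 1.37 (SD, n = 3) in p19-/- mice and 96.4% ± 2.35 (n = 2) in WT mice, which overlapped (two-sided exact permutation p = 0.8; 3 mice against 2 cannot go below 0.2).

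Not every row was in use. All 163 rows matched RefSeq names, and 82 of the Trav rows and 24 of the Trbv rows had a UMI in at least 1 T cell. Of the 46 Trav rows at 0, 34 were among the 73 rows of duplicated blocks whose names carry the letter d or n. Such copies are near-identical, so reads can be split or lost between them, and Trav rows were therefore grouped into 23 subgroups by the number after Trav.

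Among Trbv segments, Trbv13-2 (Vβ8.2 in the older naming) led in 4 of 5 mice. In p19-/- mice 1 to 3 it was assigned to 14.4%, 13.1% and 12.3% of T cells, and in WT mice 1 and 2 to 15.7% and 17.4%. The groups did not overlap, and the exact permutation p was 0.2, the smallest 5 mice allow. Trbv3 (Vβ16) came next with 13.6%, 15.8% and 9.73% in p19-/- mice and 12.4% in each WT mouse, and led in p19-/- 2. Over the 5 mice, the next 8 segments by mean share were Trbv13-1 (8.47% ± 2.4, SD), Trbv2 (8.07% ± 0.93), Trbv1 (7.53% ± 2.4), Trbv16 (7.04% ± 2.7), Trbv20 (5.39% ± 0.85), Trbv4 (5.28% ± 1.3), Trbv26 (4.77% ± 1.7) and Trbv5 (4.63% ± 1.9). The ranges over mice of neighbours in this order overlapped.

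**Figure D1:**
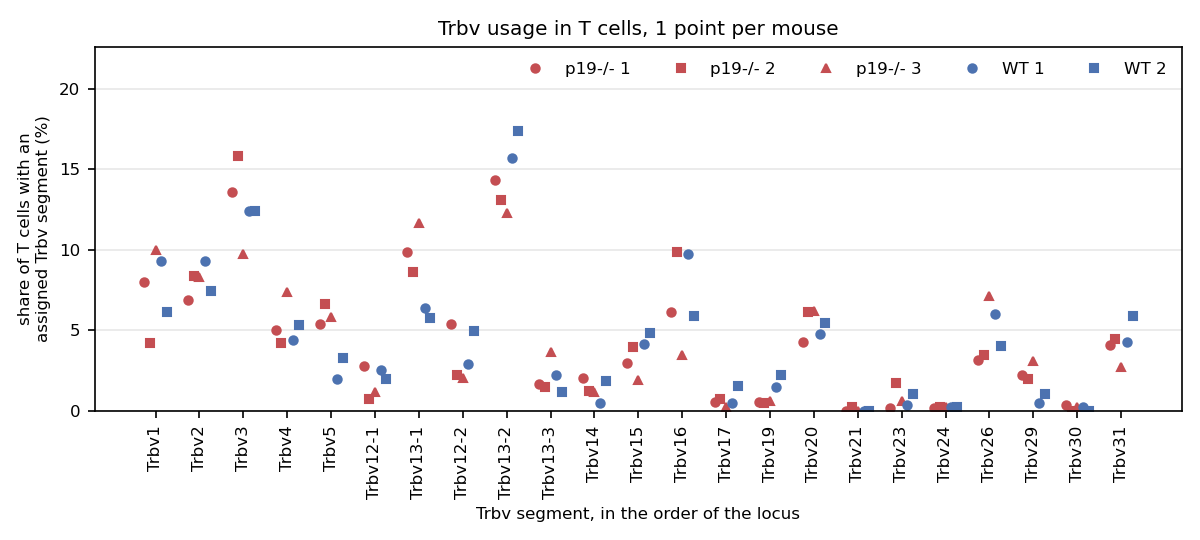
Share of T cells assigned to each Trbv segment (y axis, %), with segments in the order of the locus and 1 point per mouse, p19-/- mice in red and WT mice in blue. Trbv13-2 reached 17.4% in WT 2, while Trbv5 and Trbv13-1 were higher in all 3 p19-/- mice than in both WT mice and Trbv19 was lower.

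Segments known for deletion by viral superantigens were all present in both genotypes. Trbv16 was the most used of them, with 6.16%, 9.88% and 3.50% in p19-/- mice and 9.77% and 5.88% in WT mice. Trbv26 lay between 3.17 and 7.13%, Trbv15 between 1.95 and 4.84%, and Trbv12-2 between 2.08 and 5.41%. Trbv13-3 was at 1.18 to 3.63% and Trbv12-1 at 0.741 to 2.80%. The remaining 3 were rare, with Trbv29 at 0.465 to 3.11%, Trbv19 at 0.494 to 2.22% and Trbv17 at 0.259 to 1.57%. Trbv15 and Trbv19 had lower shares in every p19-/- mouse than in either WT mouse, and Trbv29 had higher shares. Such separation has a two-sided exact permutation p of 0.2 with 3 mice against 2. Among the 24 Trbv rows with a UMI, some would separate without any difference between genotypes, so these shares are not read as an effect of genotype.

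Trav usage was led by Trav13 in p19-/- 1, p19-/- 2 and WT 1, and by Trav14 in p19-/- 3 and WT 2. Trav13 was assigned to 12.9%, 15.0% and 10.3% of T cells in p19-/- mice and 13% and 13.6% in WT mice. Trav14 ranged more widely, from 8.35% in p19-/- 1 to 15.7% in p19-/- 3. The others among the 10 most used were Trav3 (10.1% ± 2.3, SD over 5 mice), Trav9 (9.37% ± 1.6), Trav7 (8.65% ± 2.7), Trav4 (8.36% ± 0.49), Trav6 (8.25% ± 1.7), Trav12 (7.75% ± 2.1), Trav5 (4.77% ± 1.2) and Trav8 (4.09% ± 0.40). Trav3 was lower in the p19-/- mice (9.39%, 7.89% and 8.60%) than in the WT mice (11.2% and 13.6%) with no overlap, and Trav5 was higher (4.38%, 6.58% and 5.25% against 3.35% and 4.27%). With 5 mice neither difference could pass an exact permutation test, and among 23 subgroups some would separate without any difference between genotypes.

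**Figure D2:**
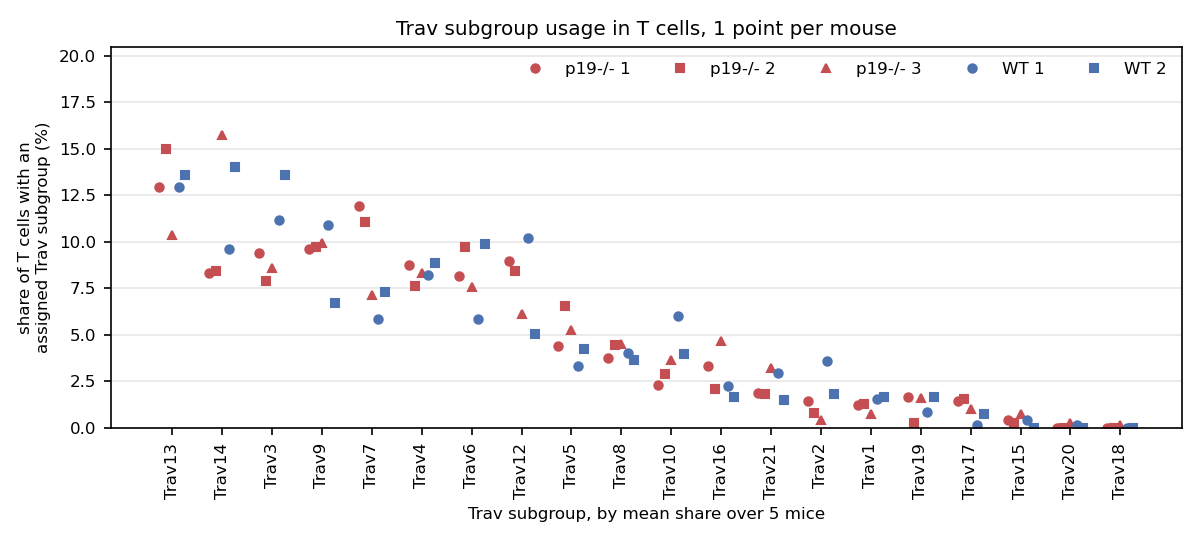
Share of T cells assigned to each Trav subgroup (y axis, %), ordered by mean share over the 5 mice, with 1 point per mouse in the colours of the genotypes. Trav4 lies in a narrow range, between 7.63 and 8.84%, and Trav14 has one of the widest.

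Segments of unconventional T cells were scarce. Trav11, whose product forms the alpha chain of invariant natural killer T cells, and its copy Trav11n had 1 UMI each in 3737 T cells, and Trav11d had 0. With cells pooled over mice and taken as independent, the latter allows a share of up to 0.0803% of cells with a UMI. These copies are near-identical, so their counts are uncertain. Zbtb16, the lineage factor of those cells, was found in at most 0.203% of T cells. Trav1, the alpha segment of mucosal-associated invariant T cells, was assigned to 1.25%, 1.32% and 0.729% in p19-/- mice and 1.53% and 1.68% in WT mice.

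No segment was missing from a genotype at the depth required, which was UMIs in at least 10 T cells of one genotype and none in the other. Below that limit, 6 Trav rows were seen in WT mice alone, and 11 Trav rows and Trbv22 in p19-/- mice alone. The most frequent of these was Trav9n-1, with 9 UMIs in 7 p19-/- cells. The others were seen in 1 to 3 cells each, among them Trav15-2-dv6-2 with 12 UMIs in 3 p19-/- cells.

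UMIs of each row were then summed per mouse and compared between genotypes with all other genes in edgeR. In all T cells, 2 of the 73 V rows tested passed an adjusted p of 0.05, where 0.424% of all genes tested did. Scaled to the summed Trav and Trbv UMIs, 2 rows were higher and 1 lower in p19-/- mice. Trbv5 was at 31.0, 40.4 and 26.2 CPM in p19-/- mice and at 10.7 and 13.1 in WT mice, so that every p19-/- mouse was above both WT mice. Its log2 fold change was 1.42 ± 0.22 (SE; edgeR quasi-likelihood adjusted p = 0.0283). Trbv19 was at 17.2, 12.2 and 18.6 in p19-/- mice and at 34.8 and 37.5 in WT mice, again with no overlap (log2 fold change -1.15 ± 0.18, edgeR adjusted p = 0.0288). Both calls were lost without p19-/- 1, without WT 1 and without WT 2. Trbv19 was also lost when cells that share a barcode with an immunoglobulin contig, more frequent in the p19-/- mice, were left out (log2 fold change -1.56, edgeR adjusted p = 0.118). When cells with a UMI were counted in place of UMIs, no V row passed (11 at an unadjusted p under 0.05), with Trbv5 at an adjusted p of 0.051 and Trbv19 at 0.853 in edgeR.

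In Tfh cells 5 of 69 V rows passed (0.641% of all genes did), 3 of them higher in p19-/- mice. Trbv5 was at 41.0, 49.9 and 28.4 CPM in p19-/- mice and 14.2 and 12.1 in WT mice, a log2 fold change of 1.57 ± 0.26 (edgeR adjusted p = 0.0136). In cells it was the assigned segment of 6.17%, 7% and 6.21% of p19-/- Tfh cells and of 2.45% and 2.37% of WT Tfh cells, and it is the only genotype call that also passed when cells were counted (edgeR adjusted p = 0.0202), although 4 of the calls described in these cells and in the other gates were not testable that way. Trav5-1 was at 20.2, 25.7 and 19.8 against 5.26 and 3.12 CPM (2.40 ± 0.32 on the log2 scale, edgeR adjusted p = 0.00385).

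Trbv13-1 (Vβ8.3) was at 369, 284 and 301 CPM in p19-/- Tfh cells and at 206 and 208 in WT Tfh cells, a log2 fold change of 0.62 ± 0.12 (edgeR adjusted p = 0.0411). Its assigned share was also higher in every p19-/- mouse, at 9.77%, 8.56% and 10.2% against 5.47% and 5.92%. Trbv12-2 was lower, at 110, 99.1 and 126 against 169 and 217 CPM (log2 fold change -0.79 ± 0.13, edgeR adjusted p = 0.0153). Trbv19 passed by a small margin, with 21.4, 13.5 and 12.6 against 32.1 and 36.2 CPM (log2 fold change -1.12 ± 0.23, edgeR adjusted p = 0.0498).

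**Figure D3:**
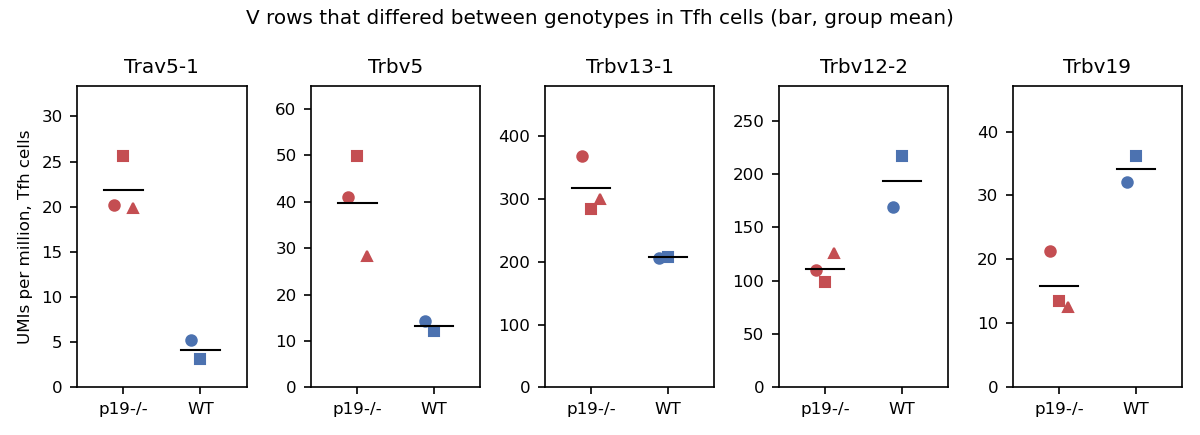
CPM (y axes, each from 0) in Tfh cells of the 5 V rows that differed between genotypes, with 1 point per mouse in the colours of the genotypes and a bar at the group mean. No p19-/- point overlaps a WT point in any of the 5 panels, but the rows are shown because they passed the test between genotypes. Their separation is therefore not a further result.

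None of the Tfh calls held in every leave-one-mouse-out fit. Trbv5 and Trbv13-1 were lost without p19-/- 1, WT 1 or WT 2, Trbv12-2 without p19-/- 1 or WT 2, Trav5-1 without WT 2 and Trbv19 without any one of the 5 mice. Leaving out cells with an immunoglobulin contig, whose share was higher in every p19-/- mouse, ended the calls of Trav5-1 (log2 fold change 1.65, edgeR adjusted p = 0.274), Trbv13-1 (0.95, adjusted p = 0.0652) and Trbv19 (-1.62, adjusted p = 0.0573), and those of Trbv5 and Trbv12-2 held. Trbv19 was also lost with doublets kept (adjusted p = 0.0764) and in DESeq2 (adjusted p = 0.417). Of 407 T cells with a Trbv12-2 UMI only 117 were assigned to it, and these 117 held 81.5% of its UMIs, so that the level of this row also reflects cells that use other segments.

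Among Foxp3-positive cells, 2 of 46 V rows passed, against 0.242% of all genes, and both were lower in p19-/- mice. Trbv1 (Vβ2) was at 88.2, 101 and 194 CPM in p19-/- mice and at 426 and 345 in WT mice, a log2 fold change of -1.50 ± 0.25 (edgeR adjusted p = 0.0145). It was the leading segment of WT 1 in this gate, at 26 of 140 assigned cells. Trav3-1 was at 0, 5.76 and 5.57 against 21.0 and 120 (log2 fold change -3.93 ± 0.74, edgeR adjusted p = 0.0279). The call of Trbv1 was lost without p19-/- 1, p19-/- 2 or WT 1 and that of Trav3-1 without p19-/- 1, p19-/- 2 or WT 2.

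Effector CD4 and CD8 cells were fewer. In effector CD4 cells Trbv12-2 alone of 16 V rows passed (0.175% of all genes did), at 16.7, 0 and 7.24 CPM in p19-/- mice and 152 and 150 in WT mice (log2 fold change -4.06 ± 0.57, edgeR adjusted p = 0.0203). In CD8 cells 2 of 14 passed (0.354% of all genes did). Trbv12-1 was at 26.4, 0 and 0 against 144 and 190 (log2 fold change -3.92 ± 0.61) and Trbv1 at 211, 336 and 315 against 41.1 and 80.4 (log2 fold change 2.22 ± 0.35), both with an edgeR adjusted p of 0.00256. The direction of Trbv1 in CD8 cells was the opposite of that in Foxp3-positive cells, and the difference between the gates was not tested. The 2 gates held 21 to 50 Trbv-assigned cells a mouse, and the cells that carried each segment were fewer. Trbv1 led the CD8 gate of p19-/- 3 with 4 of 21 cells. Over all T cells, a cell assigned to Trbv12-2 held 15.3 UMIs of it on average and one assigned to Trbv12-1 held 6.30. None of these 3 calls was testable with cells counted. Trbv12-2 was lost without p19-/- 1, WT 1 or WT 2, Trbv12-1 without WT 1 or WT 2 and Trbv1 without WT 1. With doublets kept, which added 1 CD8 cell in p19-/- 3, neither CD8 call passed (edgeR adjusted p = 0.0662 for both Trbv1 and Trbv12-1). DESeq2 called none of the 3 (9 V rows at an unadjusted p under 0.05 in effector CD4 cells and 2 in CD8 cells).

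Of 20 other T cell receptor and signalling genes, among them Trac, Trbc1, Trbc2, the Cd3 genes, Lck and Zap70, 11 to 14 were tested in each set of cells and none passed between genotypes in edgeR. The median log2 fold change of this list was 0.08 in T cells, where that of all genes was 0.00.

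Within mice, Foxp3-positive cells were compared with Tfh cells in a fit with mouse as a block. Of 65 V rows, 3 were higher and 13 lower in Foxp3-positive cells, against 17.3% of all genes called in either direction. The V rows had a median log2 fold change of -0.21 and all genes one of -0.01. Scaled to the summed Trav and Trbv UMIs, which moved the median of all genes to 0.31, 6 were higher and 11 lower. Depth was similar (median 3630 UMIs in Tfh and 3711.5 in Foxp3-positive cells), and in the list of 20 receptor genes 7 of 11 were lower, including Trbc1 and Trbc2, and 0 higher.

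Trbv13-2 was lower in Foxp3-positive cells in all 5 mice, at 189, 216, 159, 267 and 341 CPM (p19-/- 1 to 3, then WT 1 and 2) against 511, 416, 431, 420 and 591 in Tfh cells. The log2 fold change was -1.01 ± 0.11 (edgeR adjusted p = 1.98e-06). Its assigned share was also lower in each mouse, at 11.5%, 8.47%, 6.85%, 12.9% and 15.2% against 16.2%, 13.6%, 14.6%, 16.0% and 18.9%. Counted as cells, the adjusted p was 0.198 in edgeR.

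Trav9-2 was lower in all 5 mice, at 3.86, 36.4, 13.7, 19 and 6.66 CPM in Foxp3-positive cells against 47.9, 71.4, 27.0, 58.5 and 32.3 in Tfh cells (log2 fold change -1.54 ± 0.23, edgeR adjusted p = 0.000106). This call held in each fit without 1 mouse and with cells counted. Trav12-3 was lower in 4 of 5 mice (log2 fold change -1.35 ± 0.39, edgeR adjusted p = 0.0231) and also passed with cells counted, but was lost without p19-/- 1 or p19-/- 3 and in DESeq2 (adjusted p = 0.110). WT 1 went the other way for that row, with 87.3 CPM in Foxp3-positive and 75.0 in Tfh cells.

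Trbv13-3 was higher in Foxp3-positive cells, at 23.1, 33.6, 192, 100 and 66.6 CPM against 25.7, 49.8, 29.7, 51.1 and 15.0 in Tfh cells (log2 fold change 1.43 ± 0.30, edgeR adjusted p = 0.00261). As a share of assigned cells it was at 1.92%, 1.69%, 11.6%, 4.29% and 2.40% against 1.29%, 1.17%, 1.40%, 1.51% and 0.394%, higher in each of the 5 mice. In p19-/- 1 and p19-/- 2 these are shares of only 52 and 59 assigned Foxp3-positive cells, and the CPM of both mice was lower in that gate. In p19-/- 3, 14 Foxp3-positive cells paired Trbv13-3 with Trav14. The call also passed with cells counted (adjusted p = 0.0019) and was lost without p19-/- 3 (adjusted p = 0.065, edgeR) and in DESeq2 (adjusted p = 0.398), which called no V row higher in Foxp3-positive cells.

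The other 2 higher rows were Trav5-4, higher in 5 of 5 mice (0.74 ± 0.17), and Trav2, higher in 3 of 5 (0.79 ± 0.23). The remaining lower rows were Trbv3, Trbv4, Trbv15, Trbv23, Trav6-2, Trav10, Trav10d, Trav14-1, Trav12-2 and Trav19, with log2 fold changes from -3.72 for Trav14-1 to -0.41 for Trbv4. None of these passed when cells were counted, where Trbv23, Trav2, Trav6-2, Trav14-1 and Trav19 were not testable. The calls of Trbv13-2, Trbv15, Trav9-2, Trav12-2 and Trav14-1 held in each fit without 1 mouse. Trbv4 was lost without any one mouse, Trav2 without p19-/- 1, WT 1 or WT 2, and Trav6-2, Trav10 and Trav10d without WT 1 or WT 2. Trbv3 was lost without p19-/- 3 or WT 2, Trbv23 without p19-/- 2 or p19-/- 3, Trav19 without p19-/- 3 and Trav5-4 without WT 2. Without contig-bearing cells, Trav5-4 (0.40), Trav2 (0.29), Trbv23 (-1.18), Trav10d (-1.03) and Trav19 (-1.40) did not pass, and Trbv3 (-0.25) and Trbv4 (-0.08) did not pass when scaled to V UMIs. Of the 16 calls, DESeq2 made those of Trbv3, Trbv13-2, Trav9-2, Trav10 and Trav19.

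CD8 cells were deeper than the CD4 gates (median 5745 UMIs), and their Trbv level was below that of each CD4 gate within every mouse. Their Trbv level was 947, 1805 and 1149 CPM in p19-/- mice and 1075 and 1475 in WT mice, and the range over mice was 2383 to 2694 in Tfh, 1690 to 2223 in Foxp3-positive and 1593 to 2451 in effector CD4 cells. The Trav level was also lower in CD8 cells, except that p19-/- 2 had 958 CPM in CD8 and 933 in effector CD4 cells. Of 62 V rows tested within mice, 4 were higher and 23 lower in CD8 cells, against 23.8% of all genes called in either direction. The median log2 fold change was -0.68 over the V rows and -0.10 over all genes. Scaled to the summed V UMIs, which moved the median of all genes to 0.45, 9 were higher and 16 lower. Of the list of 20 receptor genes, 14 were tested, and 7 were lower (Zap70, Cd247, Trbc1, Trac, Cd3g, Cd3e and Cd4) and 4 higher (Cd8a, Cd8b1, Lat and Trdc) in CD8 cells. Cd4, Cd8a and Cd8b1 defined the gates.

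Trbv29 (Vβ7) was higher in CD8 cells, at 140, 83.2, 52.3, 94.6 and 59.5 CPM (p19-/- 1 to 3, then WT 1 and 2) against 35.6, 31.1, 71.6, 2.20 and 22.1 in CD4 cells. Only p19-/- 3 had a lower level in CD8 cells. The log2 fold change was 1.6 ± 0.29 (edgeR adjusted p = 3.7e-06) and the call held in each fit without 1 mouse and with cells counted (adjusted p = 0.032). As a share of assigned cells Trbv29 was at 11.5%, 6.90%, 9.52%, 6.45% and 4.17% in CD8 cells and at 1.48%, 1.76%, 3.07%, 0.139% and 0.882% in CD4 cells, higher in all 5 mice. The CD8 gate held only 26, 29, 21, 31 and 24 Trbv-assigned cells in these mice, so each CD8 share rests on a few cells.

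Trbv2 (Vβ4), Trbv3, Trbv13-2 and Trav9-4 were lower in CD8 cells and also passed with cells counted and in each fit without 1 mouse, while Trbv3 did not pass in DESeq2 (adjusted p = 0.0716). Trbv2 was at 0, 11.1, 34.9, 21.8 and 29.7 CPM in CD8 cells against 60.7, 105, 72.4, 86.9 and 61.3 in CD4 cells (log2 fold change -2.14 ± 0.33, edgeR adjusted p = 7.9e-08). Trbv3 was at 56.2, 0, 122, 21.8 and 164 against 253, 366, 174, 279 and 287 (log2 fold change -2.04 ± 0.23). Trbv13-2 fell in 4 of 5 mice, with p19-/- 2 at 416 in CD8 and 323 in CD4 cells (log2 fold change -1.19 ± 0.18). Trav9-4 had a log2 fold change of -2.48 ± 0.51.

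By cells, Trbv13-1 led the CD8 gate of p19-/- 1 and WT 1 and was tied for the lead in p19-/- 2. It was at 23.1%, 13.8%, 14.3%, 22.6% and 12.5% of assigned CD8 cells and at 9.53%, 8.21%, 10.8%, 5.97% and 5.59% of CD4 cells. These CD8 shares were 6 of 26 cells in p19-/- 1, 4 of 29 in p19-/- 2 and 7 of 31 in WT 1. In WT 1, 5 CD8 cells paired Trbv13-1 with Trav3. The share of Trbv13-1 was higher in CD8 cells of all 5 mice, while its UMI level did not pass the test. Trbv17 (log2 fold change 2.27 ± 0.32), Trbv12-1 (1.31 ± 0.33) and Trav8d-2 (0.87 ± 0.34) were the other higher rows. Trbv17 was at 107, 0, 8.71, 80.0 and 223 CPM in CD8 cells against 17.0, 16.9, 5.23, 9.72 and 31.4 in CD4 cells, higher in 4 of 5 mice. Its call held in each fit without 1 mouse and was lost in DESeq2 (adjusted p = 0.203) and with cells counted (edgeR adjusted p = 0.481). Trbv12-1 and Trav8d-2 were higher in 2 of 5 mice each and turned negative in DESeq2 (-0.18 and -1.78), and Trav8d-2 turned negative without p19-/- 2 (-0.51).

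Among lower rows, 7 had 0 UMIs in CD8 cells of all 5 mice. Against a floor of 3 UMIs over the CD8 cells of the 5 mice, the CD4 mean was 10.1 times the floor for Trav21-dv12 and 7.93 for Trav7n-4. It was 6.05 for Trbv23, 5.51 for Trav7d-4, 3.76 for Trav6-2, 3.02 for Trav6d-4 and 3.01 for Trav7-5. The floor takes UMIs as independent, while a T cell assigned to Trav21-dv12 held 7.29 UMIs of it on average. A row at 0 can therefore reflect few cells, and these ratios are not lower limits of a fold change. None of the 7 was testable with cells counted. DESeq2 did not call Trbv23 (adjusted p = 0.0599), Trav6d-4 (0.104) or Trav7-5 (0.0877). With doublets kept, Trav21-dv12 was not called in edgeR (log2 fold change -0.88). Trav13-1 (-2.66 ± 0.35), Trav9-1 (-4.40 ± 0.80), Trav4-4-dv10 (-2.06 ± 0.32), Trbv20 (-2.37 ± 0.36) and Trbv4 (-1.78 ± 0.39) were lower in all 5 mice. None of these rows passed with cells counted (edgeR adjusted p from 0.120 for Trav9-1 to 0.360 for Trbv4). The 7 other lower rows were Trbv12-2, Trbv13-3, Trbv15, Trbv31, Trav10, Trav12-3 and Trav14-2, each of which was lost without at least 1 mouse. Trbv15 was lost without p19-/- 2, Trbv12-2 without p19-/- 1, p19-/- 3 or WT 1, Trbv13-3 without p19-/- 2, p19-/- 3 or WT 1, and Trbv31 without p19-/- 3, WT 1 or WT 2. Trav12-3 was lost without p19-/- 1 or p19-/- 3, Trav14-2 without p19-/- 1 or p19-/- 2, and Trav10 without any mouse other than WT 2. Of the higher rows, Trbv12-1 was lost without WT 1 or WT 2, and Trav8d-2 without p19-/- 1 or p19-/- 2.

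Effector CD4 cells were compared with Tfh cells in the same way. Of 64 V rows, 1 was higher and 9 lower, against 8.34% of all genes called in either direction. The median log2 fold change was -0.30 over the V rows and -0.02 over all genes, and scaled to V UMIs, with the median of all genes at 0.19, 2 were higher and 7 lower. With cells counted, 29 V rows were testable, among them 5 of the 10 calls, and none passed in edgeR (3 at an unadjusted p under 0.05). The calls of Trbv29, Trav1, Trav2, Trav8d-1 and Trav14-1 were not testable that way. DESeq2 called 1 V row. Trbv29 was at 0, 0, 26.5, 0 and 0 CPM in effector CD4 cells and at 49.4, 30.2, 95.4, 3.61 and 21.1 in Tfh cells (log2 fold change -2.92 ± 0.54, edgeR adjusted p = 0.000637). Trav13n-4 was lower in all 5 mice (-1.42 ± 0.34, adjusted p = 0.00742 in edgeR). These 2 calls held in each fit without 1 mouse, and DESeq2 made that of Trbv29 (adjusted p = 0.0111) and not that of Trav13n-4 (adjusted p = 0.0907).

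Trav1 was the higher row, at 0, 40.3, 0, 25.6 and 205 CPM against 21.0, 8.42, 7.98, 13.9 and 6.51 (log2 fold change 2.15 ± 0.63, edgeR adjusted p = 0.0317), and was lost without p19-/- 2 or WT 2. The other lower rows were Trbv12-2, Trbv13-1, Trav2, Trav8d-1, Trav13-1, Trav14-1 and Trav9-4, with log2 fold changes from -3.33 to -0.81. Trav14-1 was lost without WT 2, Trbv12-2 without p19-/- 1 or p19-/- 3, Trav2 without p19-/- 1, p19-/- 2 or WT 1, and Trav8d-1 without p19-/- 1, WT 1 or WT 2. Trbv13-1 was lost without any mouse other than p19-/- 3, and Trav13-1 and Trav9-4 without any mouse other than WT 2. The sign of Trbv13-1 was reversed with cells counted (0.014).

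Single mice stood out most among Foxp3-positive cells. A segment was called skewed where at least 10 cells of a mouse used it and its share was at least 3 times the median of the other 4 mice, and no test was made. In p19-/- 3, Trav14 was used by 32 of 126 Foxp3-positive cells (25.4%, exact 95% interval 18.1 to 33.9%) and by 2.13 to 8.20% in the other mice. In the same mouse Trbv13-3 was used by 17 of 146 (11.6%, 6.93 to 18.0%), Trbv26 by 18 of 146 (12.3%, 7.47 to 18.8%) and Trav16 by 10 of 126 (7.94%, 3.87 to 14.1%). In p19-/- 1, Trbv12-2 was used by 10 of 52 (19.2%, 9.63 to 32.5%) and by 1.37 to 5.60% elsewhere. In WT 1, Trbv1 was used by 26 of 140 (18.6%, 12.5 to 26.0%) and Trav12 by 15 of 116 (12.9%, 7.42 to 20.4%).

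**Figure D4:**
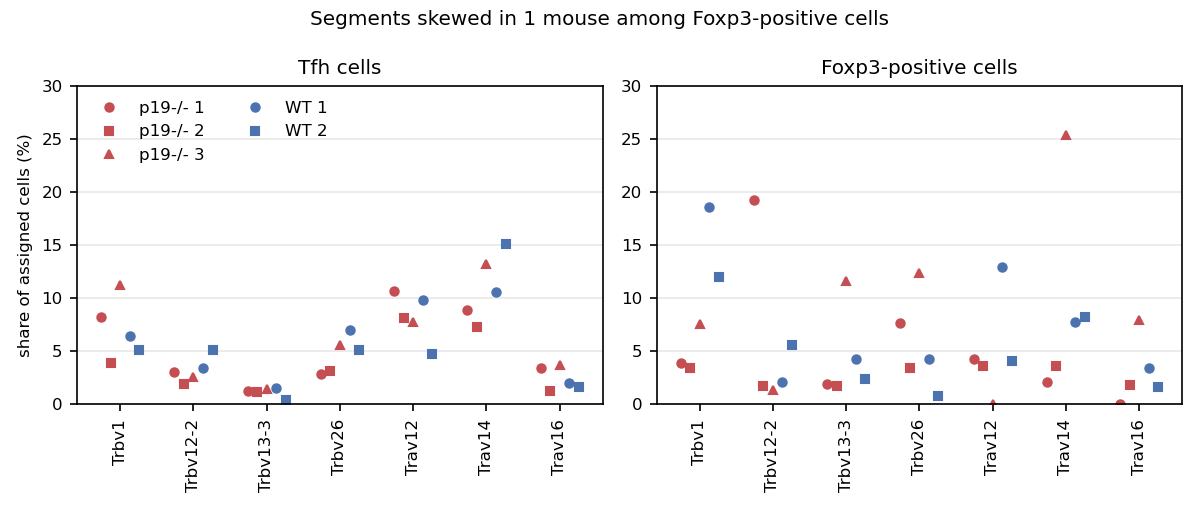
Share of assigned cells (y axes, %) in Tfh cells (left) and Foxp3-positive cells (right) for the 7 segments skewed in 1 mouse among Foxp3-positive cells, with 1 point per mouse in the colours of the genotypes. Trav14 reaches 25.4% in Foxp3-positive cells of p19-/- 3, Trbv12-2 19.2% in p19-/- 1 and Trbv1 18.6% in WT 1, against 13.2%, 3.08% and 6.42% in the Tfh cells of the same mice.

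In Tfh cells only Trbv14 met the rule, in p19-/- 1 (11 of 389, 2.83%, 1.42 to 5%). Over all T cells Trbv17 (12 of 765) and Trbv19 (17 of 765) were skewed in WT 2 and Trav2 (26 of 717) in WT 1. Among T cells of no gate, Trbv13-1 (13 of 66) and Trbv4 (10 of 66) were skewed in p19-/- 3. The effector CD4 and CD8 gates gave none, and with 21 to 50 Trbv-assigned cells a mouse such skew was hardly detectable at this depth. Intervals cover counting error only.

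Evenness was measured as the chance that 2 T cells of a mouse share a segment. For Trbv it was 7.81%, 8.23% and 7.72% in p19-/- mice and 8.42% and 7.92% in WT mice, and it was 7.18 to 8.04% for cells taken from 2 different mice. For Trav subgroups it was 8.24 to 9.13% within and 7.89 to 8.54% between mice. Neither measure differed between genotypes beyond the spread of mice (exact permutation p = 0.4 for Trbv and 0.8 for Trav).

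For pairs of a Trav subgroup and a Trbv segment, sharing within mice was above the range between mice in T, Tfh and Foxp3-positive cells, and not in every mouse of the smaller gates. The chance that 2 T cells shared both was 0.859%, 0.852%, 1.02%, 1.03% and 0.948% within the mice and 0.577 to 0.699% across the 10 pairs of mice. In Foxp3-positive cells it was 2.32%, 1.96%, 2.82%, 2.08% and 1.20% within, and 0.311 to 1.12% between mice. In Tfh cells it was 0.856%, 0.919% and 0.987% in p19-/- and 1.35% and 1.16% in WT mice, without overlap (exact permutation p = 0.2, the smallest possible), and 0.606 to 0.810% between mice. In effector CD4 cells it was 0.667%, 1.58%, 0.605%, 0 and 1.35% within and 0 to 1.18% between mice, and in CD8 cells 3.27%, 2.33%, 0, 3.99% and 0 within and 0 to 1.33% between. These are V pairs and not clonotypes, since the joining segments and junctions are not in the counts.

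The largest pairs of each mouse were small. In p19-/- 3, Trav14 with Trbv26 was found in 26 of 636 cells with both chains assigned (4.09%, 2.69 to 5.93%), and in 0 to 0.920% elsewhere. Of those 26 cells, 16 also held UMIs of Trav5-4, against 6.07% of the other cells of that mouse with both chains assigned. This pair occurred in 13 Tfh and 9 Foxp3-positive cells. In WT 1, Trav10 with Trbv16 was found in 23 of 654 cells (3.52%, 2.24 to 5.23%), 22 of them in the Tfh gate. The leading pairs were Trav3 with Trbv13-2 in WT 2 (20 of 620, 18 of them Tfh), Trav7 with Trbv3 in p19-/- 2 (13 of 364), and Trav12 with Trbv13-2 and Trav7 with Trbv12-2, tied at 12 of 435, in p19-/- 1.

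Several pairs carried UMIs of a further V row. It was chosen as the row found in the most cells of the pair, apart from the pair's own rows, and so is given without a test. In p19-/- 3, Trav14 with Trbv13-3 was found in 14 of 120 Foxp3-positive cells, of which 12 also held Trbv2 UMIs, against 10.4% of the other Foxp3-positive cells of that mouse with both chains assigned. The pair was in 0 of the 305 Foxp3-positive cells with both chains assigned in the other mice, and in 0 Tfh cells of p19-/- 3. With the 305 cells pooled and taken as independent, a share of up to 0.984% is allowed, which is not a limit for any single mouse. Trav16 with Trbv13-1 in the same mouse had 17 cells, 12 of them with Trbv24 UMIs (2.42% of the other cells with both chains assigned), in 8 Tfh and 7 Foxp3-positive cells. Trav9 with Trbv4 had 20 cells, 10 of them with Trav2 UMIs (0.974% of the others), in 9 Tfh and 7 Foxp3-positive cells.

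In WT 1, Trav2 with Trbv1 was found in 17 cells, 9 of them Foxp3-positive and 5 Tfh, and in 0 of 2055 cells of the other mice. With these cells pooled and taken as independent, this allows up to 0.146%, which is not a limit for any single mouse. Trav13-2 UMIs were found in 10 of the 17. Trav9 with Trbv16 in the Tfh cells of WT 1 had 17 cells, of which 10 also held Trbv19 UMIs, against 2.01% of the other Tfh cells there with both chains assigned. In p19-/- 1, 6 of 42 Foxp3-positive cells paired Trav7 with Trbv12-2, the segment skewed there. In WT 2, Trav14 with Trbv12-2 had 16 cells, 13 of them with Trav14-1 as the Trav row, and 7 held Trav6n-5 UMIs.

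UMIs of a second Trbv row followed the position of the segment a cell used, for some rows. Trbv13-2 UMIs were found in 23.0% of 970 T cells assigned to segments downstream of it and in 7.28% of 1731 assigned to segments upstream, with median total UMIs of 3688.5 and 3687. The share was higher downstream in each mouse (12.6 to 30.2% against 5.83 to 7.78%). By segment it was 33.8% in Trbv13-3 cells, 44.2% in Trbv14 cells, 37.5% in Trbv15 cells, 28.8% in Trbv16 cells, 19.6% in Trbv20 cells, 10.7% in Trbv26 cells and 7.14% in Trbv29 cells. It was 6.99% in cells using Trbv31, which lies beyond the constant regions in the opposite orientation.

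**Figure D5:**
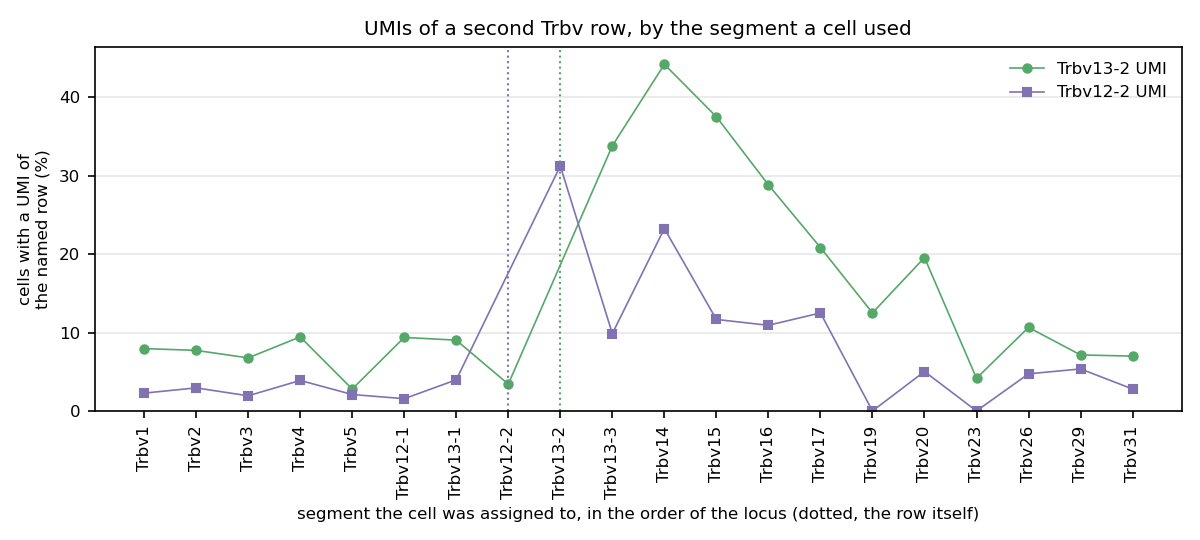
Share of T cells with a UMI of Trbv13-2 or Trbv12-2 (y axis, %) by the segment the cell was assigned to, in the order of the locus, with dotted lines at the rows themselves. The Trbv13-2 share peaks at 44.2% in Trbv14 cells and the Trbv12-2 share at 31.2% in Trbv13-2 cells, and both are lower farther along, with scatter between segments.

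Trbv12-2, the upstream neighbour of Trbv13-2, was found in 15.9% of 1463 cells using downstream segments and 2.73% of 1614 using upstream ones, and in 154 of the 493 Trbv13-2 cells. At the alpha locus Trav3-3 was found in 22.7% of downstream and 6.33% of upstream cells, and Trav9-4 in 10.8% and 3.10%, each higher downstream in all 5 mice. Not every row did this. Of the rows with at least 60 assigned cells, 7 of 13 Trbv and 9 of 14 Trav rows had the higher share downstream, and 4 of each reached at least 2 times the upstream share. In the downstream cells Trbv13-2 averaged 1.75 UMIs where present, against 10.95 in its own cells. Rows of related segments can also share reads, and the part of this in the pattern was not tested.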

How the data were processed

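For each mouse the authors deposited raw UMI counts of genes by barcodes from a 10x 5' library, not normalized, and an annotated BCR contig table with read and UMI counts. Cell Ranger 3.0.2, STAR and mm10 are named in the submitters' processing notes. The BCR tables held 427 T cell receptor contigs, none with a V gene, and served only to mark T cell barcodes that also carry a contig.

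Cells with over 10% mitochondrial UMIs or under 200 genes were removed (9356 of 11355 barcodes passed). Scrublet (scanpy 1.11.5) ranked doublets. Its automatic threshold marked only 23, so the highest-scoring cells up to 0.8% per 1000 cells were removed (156). Gates came from UMIs: CD8 (Cd8a or Cd8b1, no Cd4 or Foxp3), Foxp3-positive (no Cd8a or Cd8b1), Tfh (at least 2 of 7 genes), and effector CD4 (Cd4, under 2 Tfh genes, at least 1 of Il7r, S100a4, Cxcr6, Id2, Ccl5 and Ifng). Gates miss cells whose marker went uncaptured.

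Counts were summed per mouse and gate and fitted in edgeR 4.0.16 (R 4.3.3; TMM, filterByExpr, quasi-likelihood F test, Benjamini-Hochberg over all genes, 0.05), by genotype, or between gates with mouse as a block. The edgeR step was checked on simulated data. CPM of single rows use TMM-adjusted library sizes, so a mouse differs slightly between fits. Fold changes are p19-/- over WT, or the first gate over the second. UMIs of a V row follow both the number of cells using it and RNA per cell, which cannot be told apart in sums. Other quantities used exact permutation tests over mice. Shares have exact Clopper-Pearson 95% intervals. Names and positions came from RefSeq GRCm38.p6, the build called mm10; V segment sequences were not used here. The labels number separate mice of each genotype, call the cells B and T cells from spleen without saying how they were obtained, and give no capture day, so batches could not be examined.

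Rows are named where they passed any test, were among the 10 most used, led a mouse, were skewed or missing, belong to superantigen, natural killer T or mucosal-associated T segments, or formed the largest pair of a mouse. Further rows of pairs and the comparison by locus position were chosen after their values were seen. The members and lists were chosen with earlier results of these data known. Alternatives were other scaling, no filter, DESeq2 1.42.0, each mouse left out, doublets kept, cells with a BCR contig left out, duplicated Trav rows summed, cells counted in place of UMIs, replicate number or sex as a term, a Cd3 minimum of 3, a minimum of 2 UMIs and thinning to 2000 UMIs.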

Additional observations from a re-analysis of the deposited data

Results flagged for a closer look

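Among the 53 V rows called within mice, the log2 difference between gates was examined mouse by mouse, and 3 stood out. Trbv12-1 differed between CD8 and CD4 cells in opposite directions in the genotypes: it was lower in CD8 cells of all 3 p19-/- mice and higher in both WT mice, with a mean difference between genotypes of -5.713 (p19-/- minus WT, log2 of CPM plus 1). Trbv12-1 had no UMI in the CD8 cells of p19-/- 2 (30 cells) and p19-/- 3 (24 cells), so the size of its difference depends on the 1 CPM added. Trav12-3 also went in opposite directions in the genotypes, with a mean difference of -4.487. Neither difference between genotypes was tested. For Trav7d-4, absent from CD8 cells of every mouse, WT 1 lay apart from the other mice at -2.923, where they were at -4.749 to -4.229. Chance sets 1 mouse apart in about 1 of 20 such groups.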

How the results depend on the processing

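Counts of V rows past the threshold moved with the processing. In T cells the count of 2 became 18 without the filter on low counts, 4 with DESeq2, 0 with cells counted in place of UMIs, 8 with a replicate block and 4 with sex as a covariate, and 0 to 5 without 1 mouse. In Tfh cells the 5 became 22 without the filter, 2 without cells that share a BCR contig, 1 with cells counted, 9 with a replicate block, 8 with sex and 1 to 8 without 1 mouse. In Foxp3-positive cells the 2 became 17 without the filter, 0 with cells counted (3 at an unadjusted p under 0.05), 11 with a replicate block, 5 with sex and 0 to 4 without 1 mouse. In effector CD4 cells the 1 became 10 without the filter, 0 with DESeq2 (9 at an unadjusted p under 0.05), 5 with a replicate block and 5 with sex. The count was 0, 2 and 1 without p19-/- 1, 2 and 3 in turn. With cells counted only Trbv13-2 was testable in these cells, and it did not pass. In CD8 cells the 2 became 8 without the filter, 4 with a replicate block and 5 with sex. The count was 0 with DESeq2 (2 at an unadjusted p under 0.05) and with doublets kept (4 at an unadjusted p under 0.05). It was 4, 2 and 3 without p19-/- 1, 2 and 3 in turn. No V row was testable in CD8 cells with cells counted. The causes were not tested. The replicate numbers name separate mice, and same-numbered mice correlated at 0.12 and 0.05 in their deviations over 10605 genes. The deviations of the 2 WT mice from their own mean mirror each other, so these values cannot show whether same-numbered mice shared a batch.

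Within mice, the 27 rows of CD8 against CD4 became 13 with DESeq2 and 5 with cells counted, and 23 to 28 without 1 mouse. The 16 of Foxp3-positive against Tfh became 29 without the filter, 5 with DESeq2, 5 with cells counted and 13 to 18 without 1 mouse. The 10 of effector CD4 against Tfh became 19, 1, 0 and 5 to 11. With cells counted, only 17 of the 27, 11 of the 16 and 5 of the 10 calls were testable. Of 833 values of the 65 calls under alternatives, 628 kept the call, 201 lost it and 4 changed sign. The sign changes were Trbv12-1 (-0.18) and Trav8d-2 (-1.78) in DESeq2, Trav8d-2 without p19-/- 2 (-0.51 to 1.15 over the mice left out), and Trbv13-1 against Tfh cells with cells counted (0.014). The genotype difference in cells with a V UMI, -0.59 points, was 0.51 with at least 3 Cd3 UMIs, 0.19 with at least 2 V UMIs, 0.62 in thinned cells and -2.25 to 1.08 without 1 mouse. That of Trbv coincidence, -0.25 points over all T cells, was negative in every setting run, but was -0.0008 without WT 1. Tfh was the only gate among these settings (-0.49). By gate it was also -0.19 in effector CD4 cells, but 0.70 in Foxp3-positive and 0.51 in CD8 cells. Sums of 24 to 57 cells a mouse limit the effector CD4 and CD8 gates.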
